A study of Mus musculus with 8 samples.

Results

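Serpinh1, Igfbp7, Cnmd, Umodl1, Nwd1 and Heph are 6 genes, most of them better known from connective tissue, cartilage or epithelia than from blood, that were read at clear levels in a mouse acute myeloid leukaemia. They were chosen by name, from 12830 genes in the deposited tables, as leading falling genes outside the skeletal muscle group when doxycycline (Dox) was given. Their falls are therefore a description of how they were picked, with no test, and the question taken up here is the timing of the loss. By 6 days of Dox the mean level of each of the 6 was under 3% of its untreated mean. The course to that point differed: Serpinh1 was at 143.7% of the untreated level at day 2, while Umodl1 was already down to 2.05% at day 4. That Serpinh1 share ran from 113.6% to 196.5% when single libraries were left out.

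The leukaemia, AML410, grew in the bone marrow of recipient mice of the C57BL/6 strain and has a monosomal karyotype. In all 8 libraries the cells were p53-/- and carried a hairpin RNA against PU.1 (shPU.1), the blood transcription factor encoded by Spi1, linked to green fluorescent protein (GFP). Dox switched the hairpin off, so that endogenous PU.1 returned. Total RNA came from sorted GFP-positive bone marrow cells of 4 groups with 2 libraries each: untreated mice with a GFPhigh gate, and mice after 2 days (GFPhigh-mid), 4 days (GFPmid) or 6 days (GFPlow) of Dox. Time and gate moved together and cannot be told apart, and AML410 is a single leukaemia. The sample titles speak of technical replicates and the series design of duplicate mice, so p-values measure only the spread between these libraries, which may be technical. The mice's age is not given in the sources used here.

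Library totals ran from 9262047 to 11213292 counts. Levels are CPM (counts scaled to a common library size) after scaling with edgeR's TMM factors, which ran from 0.849 to 1.18. Spi1, the gene the hairpin targets, was at 8.34 and 12.9 CPM in the untreated libraries, 14.8 and 15.6 after 2 days, 94 and 103 after 4, and 217 and 229 after 6, in the order of the labels. In day 2 replicate 1, 1 gene without a symbol (gene 100861531) took 13.3% of all counts. The top gene of each other library took 0.957% to 1.73%. The 9 genes listed for myeloid cells and blasts were Ptprc, Mpo, Elane, Prtn3, Ctsg, Cebpa, Kit, Itgam and Csf1r. All were present in every library, and only their sum was read. Their summed level was 16968.2 and 15091.9 CPM untreated and 18854.4 and 18128.1 at day 2. It was 12557.3 and 12219.7 CPM at day 4, and 8549.5 and 8556.8 at day 6.

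The 6 genes work in different places. Collagens are folded in the endoplasmic reticulum by a set of chaperones and modifying enzymes before they are secreted into the matrix, and Serpinh1, also called Hsp47, is the chaperone that is dedicated to procollagen. Igfbp7 is a secreted matrix protein that binds insulin and insulin-like growth factors weakly, and Cnmd (chondromodulin) is a BRICHOS domain membrane protein of cartilage from which an anti-angiogenic peptide is released. Umodl1 belongs to the zona pellucida domain proteins, most of which are made by epithelia, Nwd1 holds a NACHT ATPase domain with WD repeats, and Heph (hephaestin) is the copper-dependent ferroxidase that helps ferroportin export iron from gut epithelium. Other genes of each setting were put in lists, described below beside the member they belong to.

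The genes lie on 6 different chromosomes, so no pair shares a promoter. In RefSeq's GRCm38.p6 coordinates, the same build as mm10, Serpinh1 (gene 12406) spans 99345375 to 99353239 on the minus strand of chromosome 7 and Igfbp7 (gene 29817) spans 77349240 to 77408045 on the minus strand of chromosome 5. Cnmd (gene 16840) lies at 79637682 to 79662194 on the minus strand of chromosome 14, and Umodl1 (gene 52020) at 30954648 to 31010710 on the plus strand of chromosome 17. Nwd1 (gene 319555) lies at 72646225 to 72716880 on the plus strand of chromosome 8, and Heph (gene 15203) at 96455436 to 96574485 on the plus strand of chromosome X. All 6 are protein-coding.

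RefSeq promoter sequences, 250 bases before to 50 bases after the start, were matched for 5 of the 6, all but Heph. They are shown for the 3 genes that mark the extremes of timing: Serpinh1, the gene above its untreated level at day 2, Umodl1, the lowest of the 6 at day 4, and Cnmd, with the lowest mean at day 2 and the highest at day 6. Capitals mark a GC box (GGGCGG) in Serpinh1 and, on the reverse strand, an ETS core (GAGGAA), the purine-rich core known from PU.1 sites, in Umodl1. Each runs 5′ to 3′ on its gene's own strand.
Serpinh1 (minus strand, chr7:99353190-99353489): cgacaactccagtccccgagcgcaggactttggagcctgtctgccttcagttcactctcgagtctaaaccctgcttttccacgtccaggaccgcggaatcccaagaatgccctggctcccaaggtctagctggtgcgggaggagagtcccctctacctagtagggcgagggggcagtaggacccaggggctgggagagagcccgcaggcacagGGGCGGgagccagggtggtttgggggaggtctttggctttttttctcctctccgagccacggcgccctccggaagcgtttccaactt
Umodl1 (plus strand, chr17:30954433-30954732): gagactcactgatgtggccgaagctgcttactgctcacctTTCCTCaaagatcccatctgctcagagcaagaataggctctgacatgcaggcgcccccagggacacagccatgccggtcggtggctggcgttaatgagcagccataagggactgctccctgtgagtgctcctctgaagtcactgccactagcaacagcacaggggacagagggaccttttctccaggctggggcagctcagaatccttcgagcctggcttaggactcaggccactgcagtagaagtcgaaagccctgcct
Cnmd (minus strand, chr14:79662134-79662433): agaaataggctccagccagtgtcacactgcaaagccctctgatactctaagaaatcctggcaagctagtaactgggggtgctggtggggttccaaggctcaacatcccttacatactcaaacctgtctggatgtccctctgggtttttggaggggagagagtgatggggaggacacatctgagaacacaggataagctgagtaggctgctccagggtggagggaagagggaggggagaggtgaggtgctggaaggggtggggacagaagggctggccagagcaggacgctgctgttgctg

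Searching both strands for 5 motifs, the 5 matched promoters held few of them. The ETS core GAGGAA was found in Umodl1 only, 210 bases before the start, and is present in 28.3% of all 32851 promoters of the same length. The E-box CAGCTG was found in Nwd1 only, 112 bases before the start used for its promoter, and in 16.3% of all promoters. That promoter window, 72646461 to 72646760 on chromosome 8, lies inside the Nwd1 span given above. The GC box GGGCGG, held by 35.7% of all promoters, was found once in Serpinh1, 37 bases before the start, and 4 times in Igfbp7. The heat shock element GAANNTTC (7.86% of all promoters) and the TATA box TATAAA (13.6%) had no match in the 5, and Cnmd matched none of the motifs searched. None of the matches overlapped another. GC content was 62.3% in Serpinh1, 57.7% in Umodl1 and 56% in Cnmd, against a median of 52.7% over all promoters.

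Untreated levels differed widely among the 6 genes. Per kb of the deposited gene length (RPKM), the mean over the 2 untreated libraries was 114.8 ± 11.5 (SD, n = 2) for Igfbp7, the highest of the 6. Heph followed at 29.93 ± 0.501, and Cnmd at 20.92 ± 0.268. Serpinh1, at 17.15 ± 6.51, overlapped Cnmd between libraries and was otherwise next. Umodl1 was at 9.162 ± 3.62 RPKM and Nwd1, the lowest, at 4.926 ± 0.682. By day 6 the RPKM means lay between 0.0442 for Serpinh1 and 0.631 for Igfbp7.

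Serpinh1, the collagen chaperone, was at 30.65 and 53.16 CPM in the untreated libraries, 63.54 and 56.9 at day 2, 4.357 and 4.291 at day 4, and 0 and 0.2161 at day 6. Both day 2 libraries thus stood above both untreated libraries, and both later groups stood far below. The untreated pair was wide apart, and with scaling by total counts alone the day 2 libraries (59.51 and 63.5) overlapped the untreated ones (35.12 to 62.73). The log2 difference from untreated was 0.52 ± 0.20 at day 2, -3.27 ± 0.27 at day 4 and -8.42 ± 0.52 at day 6. For log2 differences, here and below, ± is the absolute difference over the square root of edgeR's F statistic. It is an approximate SE and can be too narrow where a group has few counts. The day 6 value rests on 994 counts against 2, a ratio of 380.8 with an exact 95% interval of 105.1 to 3148.4. Without day 6 replicate 1, which had 0 counts, the log2 difference was -7.53. Such intervals, here and below, cover counting error only.

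Igfbp7, the secreted growth factor binding protein, was at 149.2 and 129.4 CPM untreated, 113.2 and 103.4 at day 2, 16.79 and 10.63 at day 4, and 0.4504 and 1.081 at day 6. No library of one day overlapped those of the next. Its log2 difference from untreated was -0.36 ± 0.14 at day 2, -3.34 ± 0.17 at day 4 and -7.47 ± 0.27 at day 6, with 3295 counts untreated and 14 at day 6, a ratio of 180.3 (interval 107.3 to 330.2). Without day 6 replicate 2 the day 6 value was -8.23. In the annotation its end overlaps Polr2b, an RNA polymerase II subunit on the opposite strand. Polr2b itself was at 163.7 CPM untreated and 146.4 at day 6 (log2 difference -0.16, adjusted p = 0.0798, edgeR). Whether the counting used strand is not given in the sources used here.

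Cnmd, the cartilage membrane protein, was at 30.31 and 29.77 CPM untreated, 15.68 and 10.86 at day 2, 1.906 and 1.073 at day 4, and 1.126 and 0.6484 at day 6. It stepped down between untreated, day 2 and day 4 without overlap, and the day 4 and day 6 libraries overlapped. The log2 difference from untreated was -1.19 ± 0.19 at day 2, the lowest of the 6 at that time, -4.31 ± 0.26 at day 4 and -5.07 ± 0.29 at day 6. From day 4 to day 6 it was -0.76 ± 0.47. The ratio of untreated to day 6 was 34.04 (711 against 16 counts, interval 20.82 to 59.89), the smallest of the 6.

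Umodl1, the zona pellucida domain gene, was at 33.29 and 59.11 CPM untreated, 24.79 and 25.67 at day 2, 0.7262 and 1.17 at day 4, and 0.2252 and 0.4323 at day 6. Groups did not overlap at any step, although the untreated pair was again wide. The log2 difference from untreated was -0.87 ± 0.22 at day 2, -5.60 ± 0.35 at day 4 and -7.08 ± 0.43 at day 6. Its step from day 2 to day 4, -4.73 ± 0.37, was the largest of the 6 in that interval. From 1096 untreated to 6 day 6 counts, the ratio was 139.9 (interval 64.09 to 382.2). In the annotation the start of Umodl1 overlaps AC165951.1, an antisense gene on the opposite strand. A further antisense gene, AC165951.3, and a microRNA gene, Gm24026, lie within Umodl1, so reads shared with them are uncertain.

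Nwd1, the NACHT and WD repeat gene, was at 34.31 and 41.76 CPM untreated, 31.37 and 23.25 at day 2, 6.718 and 4.584 at day 4, and 0.563 and 0.5403 at day 6. Each day lay below the one before. Its log2 difference from untreated was -0.49 ± 0.17 at day 2, -2.74 ± 0.20 at day 4, the smallest fall of the 6 at that time, and -6.08 ± 0.31 at day 6. Its ratio of untreated to day 6 was 69.03 (901 against 10 counts, interval 37.36 to 144.4). In the annotation a microRNA gene, Gm26237, lies within Nwd1 on the same strand.

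Heph, the ferroxidase, was at 175.5 and 179.7 CPM untreated, 98.37 and 87.15 at day 2, 14.16 and 10.43 at day 4, and 1.464 and 1.729 at day 6. It had the most counts of the 6 in the untreated libraries, and its groups did not overlap at any step. The log2 difference from untreated was -0.94 ± 0.10 at day 2, -3.85 ± 0.12 at day 4 and -6.78 ± 0.17 at day 6. From 4204 to 29 counts, the ratio of untreated to day 6 was 111.1, and the lower bound of its interval was 77.21. In the annotation its start overlaps Hsf3, a heat shock factor gene on the opposite strand, and 2 processed pseudogenes lie within it, so reads shared with them are uncertain.

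**Figure D1:**
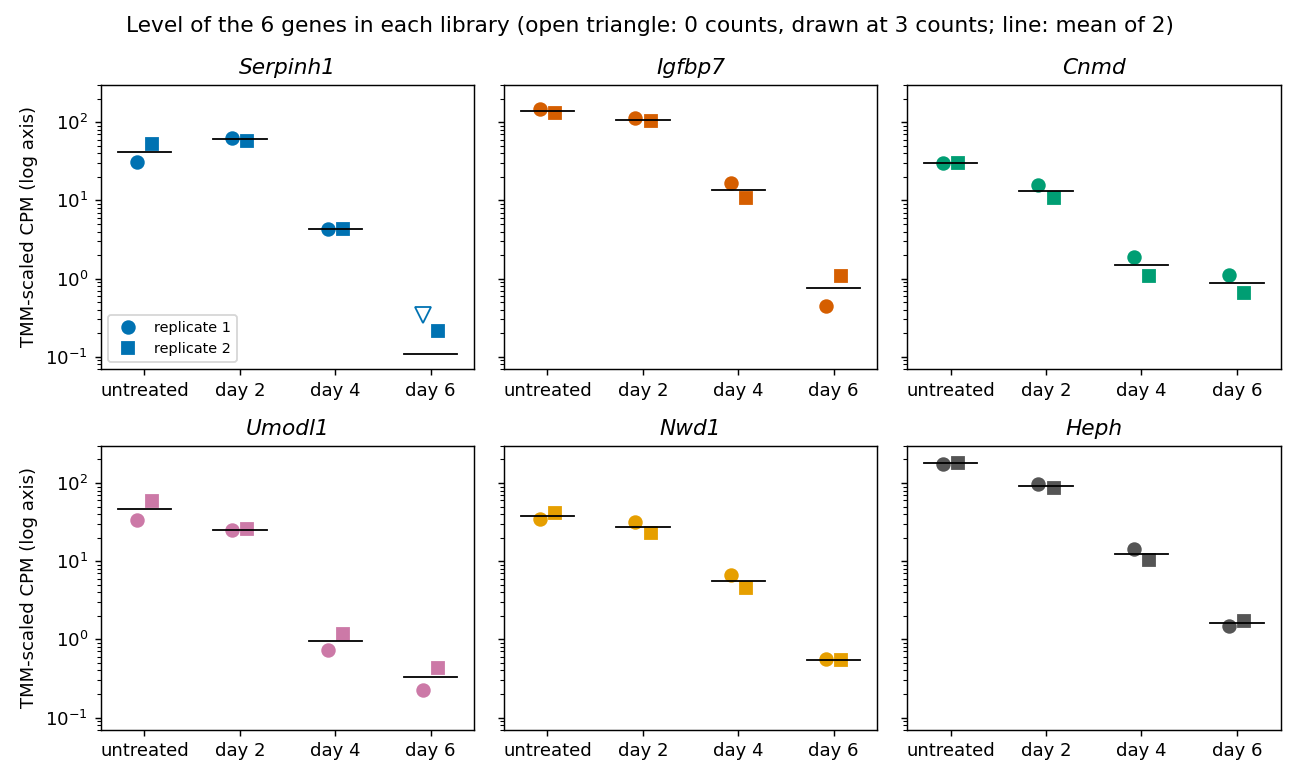
TMM-scaled CPM (log axis) of the 6 genes in each library, by group. Circles are replicate 1, squares replicate 2 and lines the mean of 2, with the Serpinh1 library of 0 counts drawn as an open triangle at the level of 3 counts. Serpinh1 alone had both day 2 libraries, 56.9 and 63.54 CPM, above its untreated pair.

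For counts of calls the background was large at the later times. With edgeR's quasi-likelihood test (Benjamini-Hochberg adjusted p under 0.05) over 12330 tested genes, 31.6% of genes were called lower and 32.0% higher at day 6 against untreated. At day 4 the shares were 22.0% lower and 26.1% higher, and at day 2 they were 1.95% lower and 4.18% higher. All 6 genes were called lower at day 4 and at day 6, and 3 of 6 (Cnmd, Umodl1 and Heph) at day 2. Without untreated replicate 2, Cnmd and Heph kept the day 2 call while Serpinh1 was called higher. Under total counts alone 5 of 6, all but Serpinh1, were called lower at day 2. Umodl1 also lost its day 2 call without any 1 of the day 2, day 4 or day 6 libraries. Between day 2 and day 4, where 15.9% of genes were called lower, all 6 were. Between day 4 and day 6, with 14.0% called lower, 4 of 6 were, without Cnmd and Umodl1. Umodl1 gained that call when either untreated library was left out. These comparisons share libraries and the genes were chosen on them, so nothing is read from the counts.

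Set against the mean untreated level, the 6 genes left it in different orders at each time. At day 2 Serpinh1 was at 143.7% ± 11.2 (SD, n = 2) of the untreated mean. Igfbp7 (77.77% ± 4.998) and Nwd1 (71.79% ± 15.1) overlapped each other below it. Umodl1 (54.61% ± 1.34), Heph (52.23% ± 4.47) and Cnmd (44.18% ± 11.4) came next, each overlapping its neighbour in this order. The Serpinh1 share rests on the untreated pair: it was 113.6% without untreated replicate 1 and 196.5% without untreated replicate 2. Umodl1 ranged between 42.79% and 75.8% in the same way.

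At day 4 Nwd1 was the highest of the 6, at 14.86% ± 3.97 of the untreated mean. Serpinh1 (10.32% ± 0.112), Igfbp7 (9.845% ± 3.13), Heph (6.925% ± 1.48) and Cnmd (4.959% ± 1.96) each overlapped their neighbour in the order. Umodl1, at 2.052% ± 0.680, stood below all the others. At day 6 Cnmd was the highest, at 2.953% ± 1.12, and Nwd1 next, at 1.45% ± 0.0421. Heph (0.899% ± 0.106), Umodl1 (0.7115% ± 0.317), Igfbp7 (0.5497% ± 0.320) and Serpinh1 (0.2579% ± 0.365) overlapped in that order. By these means Serpinh1 went from the highest of the 6 at day 2 to the lowest at day 6, and Cnmd from the lowest to the highest. The lowest ranks do not stand clear of their neighbours: without untreated replicate 1, Umodl1 (42.79%) lay below Cnmd (44.7%) at day 2.

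**Figure D2:**
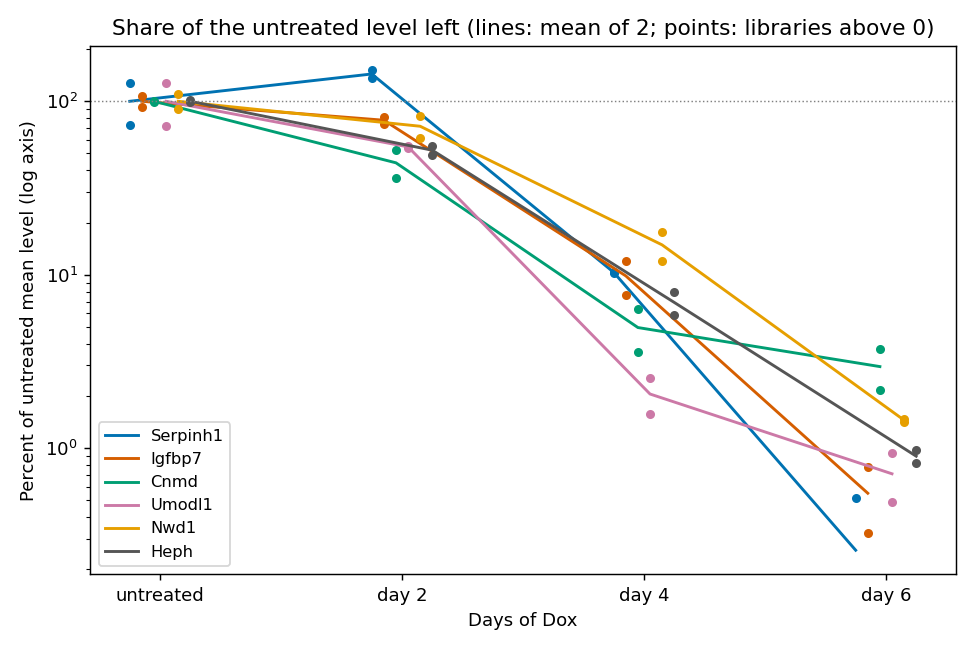
Percent of the mean untreated level left (log axis) at each time of Dox for the 6 genes. Lines join the mean of 2 libraries and points are single libraries above 0. The lines cross between day 2 and day 6, with Serpinh1 going from 143.7% to 0.258% and Cnmd from 44.2% to 2.95%.

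Split by interval, the log2 fall was spread differently among the 6. Umodl1 and Cnmd passed most of their fall between day 2 and day 4: 66.8% of the day 6 log2 difference for Umodl1 and 61.5% for Cnmd. After day 4 they added 20.8% and 15%. For Serpinh1, Igfbp7 and Nwd1 the last interval, day 4 to day 6, held the largest share, 61.1%, 55.4% and 54.9%. Heph divided evenly, with 42.8% in the middle interval and 43.3% in the last. Up to day 2 the shares were 23.5% for Cnmd, 13.8% for Heph, 12.3% for Umodl1, 8.01% for Nwd1 and 4.87% for Igfbp7, while Serpinh1 moved the other way (-6.18%). The late shares rest on few counts, from 2 for Serpinh1 to 29 for Heph at day 6. The Serpinh1 step from day 4 to day 6 was -5.15 ± 0.83, and it was -4.25 without day 6 replicate 1, the library with 0 counts. Without day 6 replicate 2 the group is at 0 counts and gives no step.

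The same shares were taken for all other genes in the deposited tables with a deep fall. These were over 2 CPM untreated, called lower at day 6 and had a log2 difference under -4. There were 103 of these outside the 6. At day 2 they were at a median of 60.2% of untreated, from 16.28% to 108.5%, with 8 above 100%, beside a median of 63.2% for the 6. Serpinh1 lay above all 103 at day 2, whereas Cnmd lay above 28 and Heph above 39. At day 4 the 103 had a median of 12.3% and the 6 a median of 8.385%. Umodl1 lay above 14 of the 103 at that time and Nwd1 above 65. At day 6 the medians were 2.781% for the 103 and 0.8052% for the 6, which were picked among the leading falls. Every gene in the deposited tables reached at least 0.501 CPM in more than 2 libraries. A gene below that level in all 6 Dox libraries could therefore not be among the 103. The day 2 shares of the 103, and the ranks of the 6 beside them, leave out any falls that were so early and complete.

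**Figure D3:**
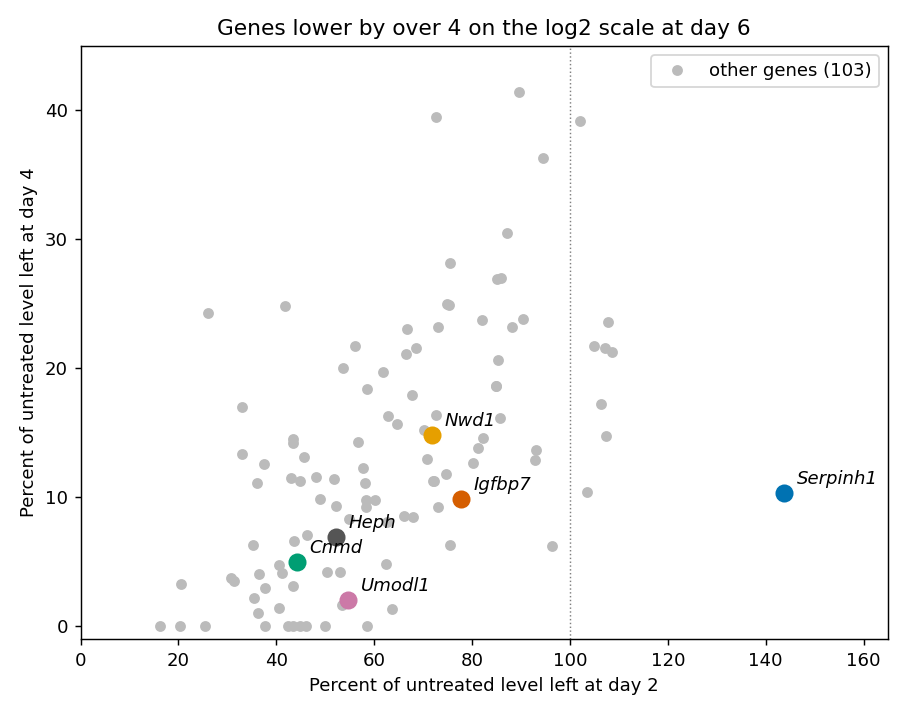
Percent of the untreated level left at day 2 (x axis) and day 4 (y axis), each the mean of 2 libraries, for the 6 genes (coloured, named) and 103 other genes lower by over 4 on the log2 scale at day 6 (grey). Serpinh1 lies to the right of all grey points, at 143.7%, and Umodl1 near the bottom, at 2.05%.

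The genes most alike in course were found by the root mean square distance over the 8 libraries, in log2 CPM centred on the untreated mean, among 10429 genes. A small constant was added to each level before the log. It limits how deep a fall to near 0 can appear, the more so for genes with a low untreated level. Nwd1 had the closest match of all, Adamtsl5 (distance 0.31), followed by Pi15 (0.36) and Slc6a18 (0.40). Among the genes closest to Heph were Tpm2 (0.50), a muscle tropomyosin, and Adamtsl5 (0.67). Among the genes closest to Cnmd were Mtss2 (0.45) and Htra3 (0.46), a secreted serine protease. Umodl1 was closest to Shisa2 (0.50), Tpm2 (0.60) and Mymk (0.75), the myoblast fusion protein myomaker, which was at 0 counts in all 4 libraries of day 4 and day 6.

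Serpinh1 had more distant matches outside the 6, among them Adamtsl5 at 1.01 and Chl1 at 1.04. Among the 6 its nearest was Igfbp7, at 0.56, and Igfbp7 in turn was nearest to Heph, at 0.53. Outside the 6, the genes closest to Igfbp7 included Adamtsl5 (0.84) and Tpm2 (0.97). Chl1 was the one of these matches that also stayed near its untreated level at day 2 (103.4%), before 10.45% at day 4 and 1.602% at day 6. The distances describe these 8 libraries, which share scaling and depth.

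Of the genes around Serpinh1 in collagen folding and processing, 18 of 30 were in the tables and 16 were tested. At day 6, 8 fell, 2 rose and 6 did not pass the test, with a median log2 difference of -0.23. Over all tested genes the median was -0.04, with 32.0% called higher and 31.6% lower, and the counts of this and the following lists stand beside those shares. P3h1, the collagen prolyl 3-hydroxylase, fell from 35.36 to 5.339 CPM (-2.72 ± 0.16, adjusted p = 4.86e-08), and its partner Crtap fell from 32.21 to 10.88 CPM (-1.57 ± 0.13, adjusted p = 8.27e-07). Fkbp14, a collagen peptidyl-prolyl isomerase, had 26 counts untreated and 3 at day 6 (-2.65, adjusted p = 0.0156), and lost the call without untreated replicate 2, without day 6 replicate 1 and with DESeq2. P4hb, the prolyl 4-hydroxylase beta subunit, was at 805 CPM untreated and 770.5 at day 6 (-0.06, adjusted p = 0.676). Ppib, cyclophilin B, was at 92.99 and 99.94 CPM (0.10, adjusted p = 0.304). Under total counts P4hb was called lower (-0.49) and Ppib turned to -0.33. Without day 6 replicate 2, 5 fell and 1 rose, and under total counts alone 11 fell and none rose, with a median of -0.67.

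Scaling matters for all such lists, since under total counts alone the median log2 difference of all genes moved to -0.47 at day 6. Of 21 chaperones and stress genes of the endoplasmic reticulum, 8 rose and 5 fell at day 6, with a median of 0.06; 3 fell without day 6 replicate 2, and 1 rose and 11 fell under total counts. Ero1b, an oxidase of disulphide formation, rose from 21.84 to 75.05 CPM (1.78 ± 0.10, adjusted p = 3.56e-08), and Manf fell by 0.60 (adjusted p = 5.27e-05). Ero1a rose by 0.45, which total counts took to 0.01. Of 13 heat shock genes 6 fell and 1, Bag3, rose at day 6, with a median of -0.22; 3 rose without untreated replicate 2, and 10 fell and none rose under total counts. Hsf1, the main heat shock transcription factor, fell from 64.06 to 41.13 CPM (-0.64, adjusted p = 8.71e-05), Hsph1 by 1.18 and Hspd1 by 1.09. Bag3 was at 28.67 and 47.13 CPM (0.72), a call lost under total counts.

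Matrix proteins, the cargo of this pathway, were split. Of 63 listed collagens and other matrix proteins 27 were in the tables and 25 were tested, of which 14 fell and 7 rose at day 6, with a median of -0.85 beside -0.04 for all genes. At day 4, 13 fell and 6 rose. Under total counts 17 fell and 5 rose at day 6. Col16a1, a fibril-associated collagen, had 133 counts untreated and 0 at day 6, and was at least 34-fold lower when 3 counts over the group are taken as the floor. Col11a1, a fibrillar collagen of cartilage, had 107 counts untreated and 1 at day 6, a ratio of 81.97 (interval 14.4 to 3267.7). Tgfbi, a secreted protein that binds collagen, went the other way, from 4.96 to 355.1 CPM (6.16 ± 0.27, adjusted p = 5.78e-09). Its untreated libraries stood at 7.237 and 2.683 CPM, and without the first of them the log2 value was 7.05.

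Around Igfbp7, 9 of 20 listed genes of the insulin-like growth factor axis were tested. At day 6, 4 fell and 2 rose, with a median of -0.26, and under total counts 6 fell and 1 rose. Htra3, a protease that cuts binding proteins of this axis, fell from 19.89 to 0.4481 CPM (-5.46 ± 0.39, adjusted p = 2.98e-07). The log2 value was -7.38 without day 6 replicate 1 and -4.63 without day 6 replicate 2. It was already lower at day 2 (-1.70, adjusted p = 0.00335). Irs1, the insulin receptor substrate, fell from 12.12 to 0.3287 CPM (-5.15 ± 0.37, adjusted p = 3.1e-07). The receptor gene Igf1r fell from 187.3 to 108.8 CPM (-0.78 ± 0.07, adjusted p = 2.47e-06), with 107.2 CPM already at day 4. The ligand gene Igf1 rose, but from 4 counts untreated to 36 at day 6 (3.46 ± 0.56, adjusted p = 0.000245).

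Few genes of the settings of Cnmd were tested. Of 15 listed cartilage and tendon genes 2 were tested, and both fell at day 6: Col11a1, given above, and Runx2, a skeletal transcription factor that is also expressed in blood cells, from 82.25 to 46.11 CPM (-0.84, adjusted p = 0.000142). The Cnmd relative Tnmd and the cartilage regulator Sox9 are absent from the deposited tables, so their levels were not read. Of the other BRICHOS domain genes 2 of 9 were tested, of which Itm2c rose from 111.8 CPM untreated to 182.6 and 161.5 CPM at day 6 (0.62, adjusted p = 0.000109), a call lost under total counts (0.19), where the other gene, Itm2b, was called lower.

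Beside Umodl1, 3 of 13 zona pellucida domain genes were tested. Eng (endoglin) fell from 16.72 to 9.842 CPM at day 6 (-0.77, adjusted p = 0.000912) and Tgfbr3 (betaglycan) fell by 0.49, a call lost without day 6 replicate 1. Oit3 had 17 counts untreated and 35 at day 6 (1.41, adjusted p = 0.0394), and lost its call under total counts, with DESeq2 and without any 1 of 4 libraries, among them untreated replicate 2 and day 6 replicate 2. Of 29 listed epithelial genes 9 were tested, and 6 rose and 1 fell at day 6, with a median of 1.06, opposite in direction to the 6 genes. Lsr, a tight junction gene, rose from 0.845 to 11.58 CPM (3.76 ± 0.29, adjusted p = 4.78e-07), and Marveld2, tricellulin, from 3.252 to 12.57 (1.95 ± 0.25, adjusted p = 3.41e-05). The epithelial adhesion gene Epcam is absent from the deposited tables, so its level was not read.

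The relatives of Nwd1 went up. Of 18 tested NACHT and related ATPase genes 14 rose and 1 fell, both at day 4 and at day 6, with medians of 0.95 and 1.27. Under total counts 12 rose and 1 fell at day 6, and 11 rose and 2 fell at day 4. The inflammasome genes Nlrc4, Nlrp1a and Nlrp1b led, with Nlrc4 rising from 0.8024 to 19.8 CPM (4.60 ± 0.28, adjusted p = 6.59e-08). Nlrp1a rose from 0.4651 to 10.6 CPM (4.48) and Nlrp1b from 1.729 to 23.07 CPM (3.73). The last 2 are close paralogs whose reads can be split between them, so their separate values are uncertain.

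Around Heph, 23 of 28 listed iron and copper genes were tested, of which 9 rose and 8 fell at day 6, with a median of 0.07, near the shares of all genes (32.0% higher, 31.6% lower); under total counts 6 rose and 13 fell. Cp (ceruloplasmin), another multicopper ferroxidase, was at 317.2 and 257.3 CPM untreated, 190.2 and 226.6 at day 2, 139.4 and 87.48 at day 4, and 17.9 and 16.32 at day 6. Its log2 difference was -0.46 at day 2 (adjusted p = 0.15), -1.34 at day 4 and -4.07 ± 0.22 at day 6 (adjusted p = 2.66e-08). At day 4 Cp thus stood at 113.5 of 287.2 CPM while Heph stood at 12.3 of 177.6. Slc40a1, ferroportin, which hephaestin works with, was at 26.58 CPM untreated, 15.3 at day 4 (-0.80, adjusted p = 0.0108) and 38.84 at day 6 (0.55, adjusted p = 0.0338). The day 4 call of Slc40a1 was lost without untreated replicate 1 or day 4 replicate 1, and the day 6 call under total counts and without untreated replicate 2 or either day 6 library. Hmox1, haem oxygenase, rose from 15.71 to 104 CPM at day 6 (2.72 ± 0.09, adjusted p = 8.84e-10) and the copper transporter Slc31a2 from 19.01 to 102.7 CPM (2.43 ± 0.09, adjusted p = 1.5e-09).

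**Figure D4:**
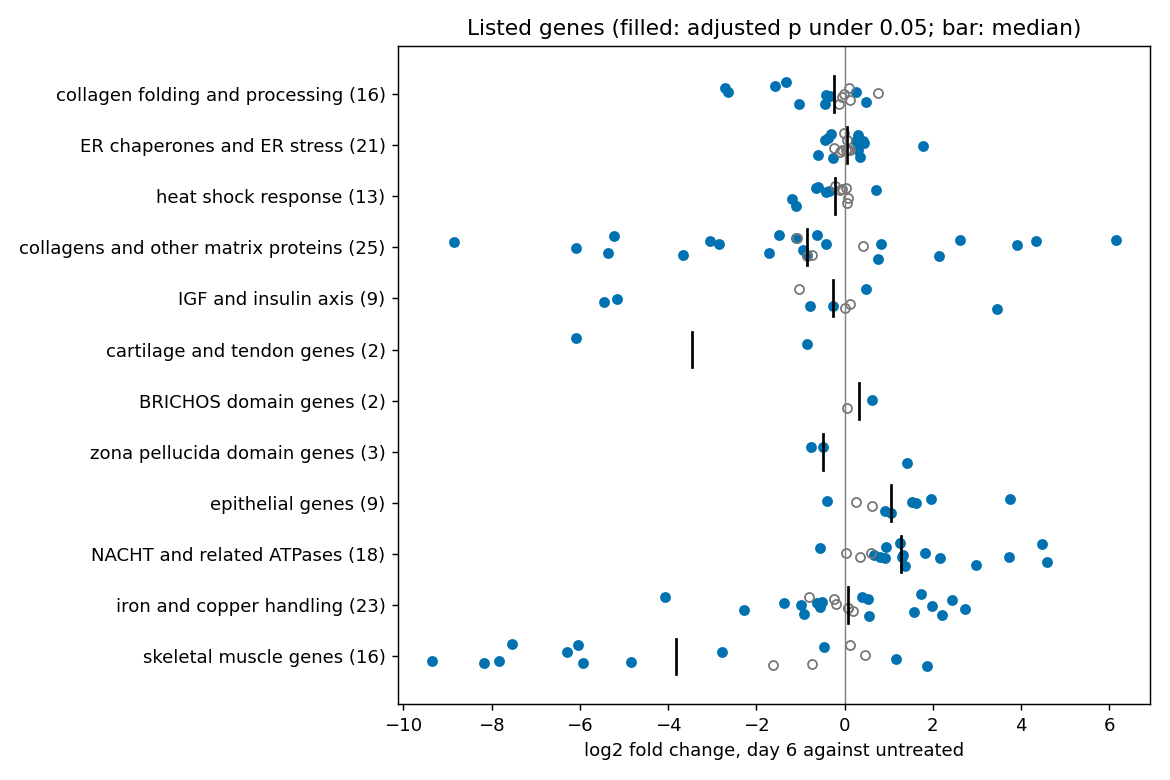
Log2 difference of day 6 against untreated for every tested gene of each list (number tested in brackets). Filled points have an edgeR adjusted p under 0.05, open points do not, and bars are medians. NACHT (median 1.27) and epithelial genes (1.06) lie mostly to the right and skeletal muscle genes (-3.81) mostly to the left. Genes at 0 counts at day 6, such as Col16a1, are drawn at a fitted value that is no bound.

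Skeletal muscle genes, which were kept out of the 6, also fell. Of 35 listed, 18 were in the tables and 16 were tested, of which 10 fell and 2 rose at day 6, with a median of -3.81, or -3.41 with genes at 0 counts put at their bound. At day 4, 11 fell and 1 rose, with a median of -4.17, or -4.02 with the bounds. At day 2 the median was -1.02, beside 0.00 for all genes; 5 fell, and 2 did without untreated replicate 2, and 3 with DESeq2 or without day 2 replicate 1 or either day 6 library. Myog, the muscle transcription factor myogenin, had mean levels of 67.46, 24.42, 0.7078 and 0.2184 CPM from untreated to day 6. Mymk and the acetylcholine receptor gene Chrng were at 0 counts at day 6, at least 47.2-fold and 16.6-fold lower on that floor. The day 2 values of Myog (-1.45) and of Cnmd (-1.19) lie on the same side, opposite to Serpinh1 (0.52).

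Genes near the 6 on the chromosome were called in about the shares of all genes. Within 500 kb of the 6 genes, 59 tested genes had a median log2 difference of 0.07 at day 6, with 22 higher and 17 lower, beside a median of -0.04, 32.0% higher and 31.6% lower over all genes. Among the 59 were 2 of the 103 deep falls, Tpbgl near Serpinh1 (-4.49) and F2rl3 near Nwd1 (-4.07), singled out after their values were seen. Serpinh1 lies between Map6, 8.24 kb away, and Gdpd5, 28.2 kb away, which rose at day 6 by 2.46 and 2.59. Cnmd lies 6.88 kb from Sugt1 (0.27, adjusted p = 0.0184) and 338 kb from Olfm4, a neutrophil granule gene that rose from 1177.1 to 5996.8 CPM. Umodl1 has Abcg1, a cholesterol exporter that rose by 1.22, on one side and the dynein gene Dnah8 (-0.43, adjusted p = 0.106) on the other. Nwd1 lies 6.39 kb from Sin3b (0.35) and 58.9 kb from Tmem38a (0.60), both higher. Noa1, 38.8 kb from Igfbp7, fell by 0.67. The nearest gene in the tables on the other side of Igfbp7 was Adgrl3 (-0.46), 3611040 bases away. Heph lay 212 kb from F630028O10Rik (0.42, adjusted p = 0.0743) on one side.

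**Figure D5:**
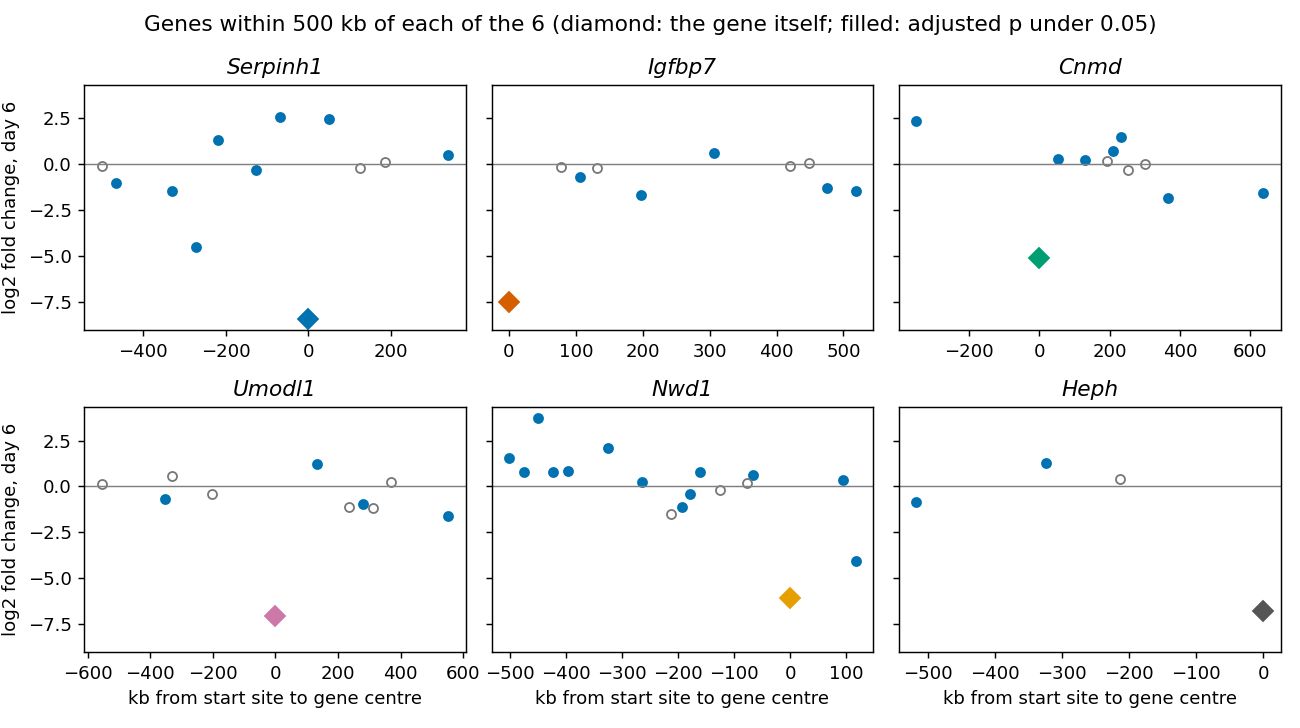
Log2 difference of day 6 against untreated for tested genes within 500 kb of each of the 6 genes, by distance in kb from the start site to the gene centre. Diamonds are the 6 genes, filled points have an edgeR adjusted p under 0.05 and open points do not. The 59 neighbours have a median of 0.07. Each diamond is the lowest point of its panel, which follows from picking the 6 for their falls.

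In bulk RNA, fewer cells of a type and less RNA per cell cannot be told apart, so markers of other cells were read beside the 6. Of 12 markers of fibroblasts and reticular stroma 4 were in the tables (Pdgfrb, Cxcl12, Acta2 and Thy1). Their summed level was 79.53 and 74.38 CPM untreated, 76.23 and 84.64 at day 2, 36.31 and 38.62 at day 4, and 15.76 and 18.59 at day 6. The day 2 sums overlapped the untreated ones, while the sums of day 4 and day 6 lay below them. Pdgfrb, singled out after its values were seen, was itself one of the 103 deep falls, at 82.01%, 23.72% and 5.466% of untreated at day 2, day 4 and day 6. The part of stromal cells in the fall of the 6 was not tested. The other listed stromal genes, Pdgfra, Lepr, Dcn, Lum, Col1a1, Col1a2, Col3a1 and Ebf3, are absent from the deposited tables, so their levels were not read. Of 9 bone and cartilage markers the tables held Runx2, with the values given above. Of 14 endothelial markers the tables held 5: Pecam1, Kdr, Vwf, Egfl7 and Flt1. They summed to 232.9 to 329.3 CPM over the 8 libraries, with all 6 Dox libraries above both untreated ones. Cdh5, Tek, Tie1, Emcn and Cldn5 were among those absent, so the sum is not read as endothelial content.

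Markers of other blood cells were read in the same way. Summed B cell markers (10 of 10) ran from 19.48 to 137.5 CPM with both ends at day 2. Only Lck, Nkg7 and Klrb1c of the T and NK cell markers (3 of 10) were in the tables, without Cd3d, Cd3e and Cd3g. Their sum ran from 94.34 to 215.9 CPM. Erythroid markers (6 of 10) ran from 2.423 to 64.52 CPM with the highest sums at day 6. Megakaryocyte markers (2 of 6) stayed between 0.9224 and 4.431 CPM. The markers at 0 counts were Blk in day 2 replicate 2, Lck in day 4 replicate 1 and Klrb1c in day 4 replicate 2. In those day 4 libraries the T and NK cell sums were still 114.7 and 121.8 CPM.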

How the data were processed

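The deposited tables hold, for each of 8 libraries, whole-number counts per Entrez gene and the gene length. Per the submitters' processing notes the authors used CASAVA 1.8.2, featureCounts, edgeR 3.8.2 and limma 3.22.0 with mm10; no source used here gives the aligner or the strand setting. The counts deposited by the authors were used as they stand, and symbols for 12555 of 12830 genes came from RefSeq (GRCm38.p6). Groups came from the sample titles.

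edgeR 4.0.16 (R 4.3.3; filterByExpr, TMM, quasi-likelihood test, 1 mean per group over all 8 libraries, Benjamini-Hochberg) tested 12330 genes, after 500 low genes were removed. Libraries of a group varied by 8.34% (biological coefficient of variation; residual degrees of freedom, 4). The code was tested on simulated data. All 6 genes passed the filter. RPKM divides CPM by the deposited length. The 6 genes and the lists were chosen with earlier results of these data known. Named beyond the 6 are up to 3 called genes per list with the largest day 6 difference, partner genes set by name, the 3 most alike genes of each and their chromosome neighbours, with the marker genes; Itm2b was named after its values were seen, and some genes the rule names are not reported here. Alternatives were RLE factors, total counts, no filter, DESeq2 1.42.0, only the 2 groups compared, a replicate block, and leaving out each library.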

Additional observations from a re-analysis of the deposited data

How the results depend on the processing

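With total counts alone in place of TMM, the genes called at day 2 were 658 lower and 170 higher (240 and 516 with TMM), at day 4 4519 and 1816 (2707 and 3217), at day 6 6647 and 2078 (3897 and 3942), and from day 4 to day 6 2646 lower (1728). The median share left over the 6 genes was then 55.26% at day 2 and 0.5934% at day 6, and Ppib turned to -0.33 at day 6. In a fit of only the 2 groups compared, 57 genes were lower and 175 higher at day 2, and Umodl1 had no value from day 4 to day 6 because it was filtered out. DESeq2 called 1089 genes lower from day 4 to day 6. The cause of these shifts was not tested.

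Leaving out 1 library gave 84 to 587 genes lower and 241 to 738 higher at day 2, with the lowest without untreated replicate 2 and the most lower genes without untreated replicate 1. It gave 1173 to 2151 lower from day 2 to day 4, 710 to 1971 lower from day 4 to day 6, and a median share left at day 2 of 58.42% to 74.21%. At day 4 and day 6 against untreated the ranges stayed within 1.5 times of the main counts. All 6 genes were called lower at day 4 and day 6 under all 14 alternatives.

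The replicate numbers only share a name: replicate differences of different groups correlated at -0.130 to 0.209 across genes. With a replicate block 196 genes were lower and 416 higher at day 2, and 3808 and 3910 at day 6. Among the genes named, Irs1 at day 2 (-0.91) lost its call under the block, which changed no other call. At day 6, 2 to 29 counts limit the precision of the 6 genes.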
